A study of Zea mays with 6 samples.

Results

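The regions described here were DNase I hypersensitive sites (DHSs) that were listed in 1 maize tissue but had a DHS of a second tissue close by. In DNase-seq, open chromatin is cut by the nuclease DNase I and the cut ends are sequenced. The tissues came from untreated greenhouse plants of the inbred line B73. The first, V2-IST, was the inner stem of V2-stage seedlings, freed from outer leaves and exposed blades. The other was the soft inner husk, the leaves around the ear, taken when silks emerged. V2-IST had 2 biological replicates and husk had 2, with 3 husk libraries because 1 sample was sequenced in a technical replicate. The nuclei of each sample were pooled from several plants, and DNase I-digested naked husk DNA was the control in peak calling.

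The deposited lists held 18485 V2-IST DHSs and 15261 husk DHSs. Of the V2-IST DHSs, 6403 overlapped no husk DHS by even 1 bp (34.6%) and are called V2-IST-only. The set was selected on its positions in both lists: a DHS had to be V2-IST-only, and at most 5000 bp could separate its edge from the nearest husk DHS. This gave 2087 adjacent V2-IST-only DHSs, which were 11.3% of all V2-IST DHSs. Among V2-IST-only DHSs their share was 32.6% (31.5% to 33.8%, Wilson). The other 4316 V2-IST-only DHSs are called distant, and the 12082 V2-IST DHSs that overlapped a husk DHS are called shared. Adjacent DHSs covered 1.27 Mb, which was 36.2% of the sequence covered by V2-IST-only DHSs.

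Both lists were integrated over replicates before deposition and hold positions without a score or a read number. All values are therefore descriptions of 1 list per tissue. No test between tissues or classes was possible, and these lists cannot show how the differences compare with replicate variation. In the paper's counts before integration, peaks of replicates overlapped only in part. Of the larger V2-IST peak list, a smaller share overlapped the other V2-IST replicate than overlapped 1 husk replicate. Against the other husk replicate, and for the smaller V2-IST list, the order was reversed. Intervals are at the 95% level and cover counting error alone. They treat DHSs as independent, which neighbours are not. V2-IST-only means absent from the integrated husk list, and a peak found in a single husk replicate may still lie there. The depth of the libraries was not analysed here, and by the paper's read counts it was uneven between the husk replicates.

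At a DHS, nucleosomes are displaced and the DNA can be reached by transcription factors and by the transcription machinery. Promoters and enhancers of active genes are typically hypersensitive. A single gene can have several DHSs, at its promoter and at regulatory sequences nearby, and each of them can open in some tissues and not in others. In maize, genes are more frequent on the outer chromosome arms, while the regions around the centromeres are rich in retrotransposons. Neither the genes nor the DNA sequence at these DHSs were analysed here, because a genome of the build was not used.

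First, the gap to the husk DHS was examined, which is the value that defined the set. The gap had a median of 1843 bp, with quartiles at 973.5 and 3190.5 bp and a range from 21 to 4996 bp. Short gaps were rare. Among the adjacent DHSs, 45 (2.16%) lay within 500 bp of the husk DHS, whereas 278 lay 501 to 750 bp away and 223 lay 751 to 1000 bp away. Per 100 bp of gap this corresponded to 9.0 DHSs up to 500 bp and 111.2 DHSs at 501 to 750 bp, and the number fell with each longer class to 29.45 DHSs at 3001 to 5000 bp. The husk DHS lay at the lower coordinate in 1021 cases and at the higher coordinate in 1066.

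**Figure D1:**
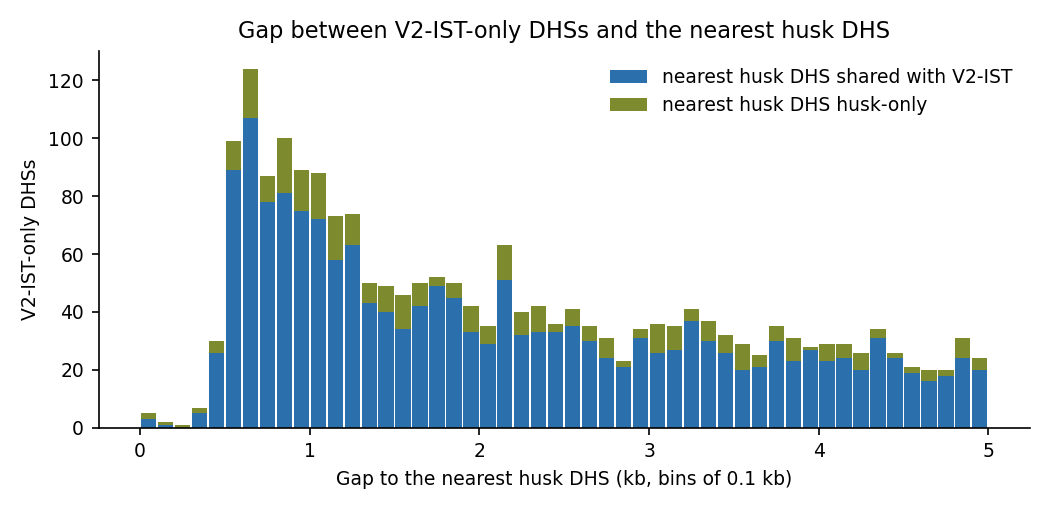
Number of adjacent V2-IST-only DHSs (y axis) by the gap to the nearest husk DHS (x axis, kb, bins of 0.1 kb); blue bars count DHSs whose husk neighbour is shared with V2-IST and green bars those whose husk neighbour is husk-only. The bars are low up to 0.5 kb, where 45 DHSs lay, are highest just above it and decline from there, and blue makes up most of the bars.

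The limit of 5000 bp did not fall at a break in the gaps. The adjacent DHSs just inside it were on chromosome 5. The first, at 178394164 to 178394793, had a gap of 4986 bp, and the second, at 1717852 to 1718896, had one of 4996 bp. The distant DHSs just outside were on chromosome 4 from 139768302 to 139768608 and on chromosome 9 from 20246015 to 20246496, each with a gap of 5012 bp. All coordinates are 1-based on the B73 AGPv4 assembly.

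Shared V2-IST DHSs were set beside these values, although each of them lies on a husk DHS by definition. For these, the husk DHSs that they overlapped were left out and the nearest remaining husk DHS was taken. Of the 12082 shared DHSs, 4446 had another husk DHS within 5 kb (36.8%, Wilson interval 35.9% to 37.7%), against the 32.6% of V2-IST-only DHSs. The first share counts a further husk DHS beside the overlapped one, and the second counts the first husk DHS. They are therefore unlike, and neither is a neutral rate for a husk DHS nearby. The gaps of adjacent V2-IST-only DHSs were somewhat longer, with a median of 1843 bp (1749 to 1923 bp) against 1683 bp (1618 to 1739 bp) for the 4446 shared DHSs. Gaps of up to 2500 bp made up 64.0% (61.9% to 66.0%) and 68.1% (66.7% to 69.5%), respectively. Gaps of 501 to 750 bp made up 13.3% for adjacent V2-IST-only DHSs (11.9% to 14.8%) and 14.1% for the 4446 shared DHSs (13.1% to 15.1%). Gaps of up to 500 bp made up 2.16% (1.62% to 2.87%) and 1.08% (0.815% to 1.43%), respectively.

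Next, the husk DHS beside each adjacent V2-IST-only DHS was characterised. For 1749 of the 2087 it was itself open in both tissues, meaning that a V2-IST DHS overlapped it (83.8%, 82.2% to 85.3%). Among all husk DHSs this share was 79.6% (79.0% to 80.3%). Seen from the husk list, 1779 of 12153 shared husk DHSs were the next husk DHS within 5 kb on either side of an adjacent V2-IST-only DHS (14.6%, 14.0% to 15.3%), against 334 of 3108 husk-only DHSs (10.7%, 9.71% to 11.9%). Most of the set thus stood beside a site listed in both tissues. Most husk DHSs were such sites, so this majority by itself is not particular to the set.

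The remaining 338 had a husk-only DHS as their nearest husk neighbour. In 278 of these (82.2%, Wilson interval 77.8% to 86.0%) the husk-only DHS had in turn no nearer V2-IST DHS, so that each was the nearest of the other. Other DHSs could still lie close by, as 135 of the 338 had another V2-IST DHS within 5 kb. The gap in these 278 pairs had a median of 1588 bp (binomial interval of the median 1351 to 1936 bp). The DHSs of a pair were similar in width, with a median of 412 bp for the V2-IST-only DHS (368 to 471 bp) and 405 bp for the husk-only DHS (381 to 433 bp). The V2-IST-only DHS was the wider one in 139 of the 278 pairs.

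In all, 1878 husk DHSs were nearest neighbour to the 2087 adjacent DHSs. Of these, 1686 served a single adjacent DHS, 176 served 2, 15 served 3 and 1 served 4. When husk DHSs next to an adjacent DHS within 5 kb on either side were considered, 118 of 2113 had adjacent DHSs on both sides (5.58%, Wilson interval 4.68% to 6.65%). Conversely, 294 adjacent DHSs had a husk DHS within 5 kb on both sides (14.1%, 12.7% to 15.6%), and 11 had one within 1000 bp on both sides.

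The surroundings in V2-IST itself were then examined. Another V2-IST DHS lay within 5 kb of 1880 of the 2087 adjacent DHSs (90.1%, Wilson interval 88.7% to 91.3%). This was the case for 18.9% of the distant V2-IST-only DHSs (17.7% to 20.1%) and 88.6% of the shared DHSs with another husk DHS within 5 kb (87.7% to 89.5%). A shared husk DHS brings a V2-IST DHS with it. Accordingly, the share was 99.8% for DHSs beside a shared husk DHS and 39.9% for those beside a husk-only DHS (34.9% to 45.2%). The nearest other V2-IST DHS was shared in 1723 cases (82.6%), another adjacent DHS in 260 (12.5%) and a distant DHS in 104 (4.98%). It lay at a median distance of 1717 bp, and it was nearer than the husk DHS for 1256 adjacent DHSs (60.2%, 58.1% to 62.3%). That share was 69.4% beside a shared husk DHS (67.2% to 71.5%) and 12.7% beside a husk-only one (9.58% to 16.7%). Beside a shared husk DHS, the nearer V2-IST DHS can be the one that overlaps this husk DHS.

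When the lists were joined into regions, 843 adjacent DHSs stood between shared regions on both sides (40.4%, Wilson interval 38.3% to 42.5%). A further 673 had a shared region on one side and a V2-IST-only region on the other (32.2%), and 363 had a shared and a husk-only region (17.4%). Another 125 stood between a V2-IST-only and a husk-only region, 45 between V2-IST-only regions and 38 between husk-only regions. For distant DHSs, 24.7% stood between shared regions (23.5% to 26.0%) and 16.8% between V2-IST-only regions (15.7% to 18.0%), against 2.16% of the adjacent ones. The rule asks for a husk DHS near the adjacent DHSs and forbids it for the distant ones, so these differences are in part set by the rule.

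Adjacent DHSs were found next to each other in 180 runs with no DHS of either tissue in between. The runs comprised 373 adjacent DHSs (17.9%, Wilson interval 16.3% to 19.6%). Of the 180 runs, 168 held 2 adjacent DHSs, 11 held 3 and 1 held 4. The median span of a run was 3304.5 bp and 135 of the 180 runs measured at most 10 kb, while the largest span was 802612 bp. A long run joins DHSs that each have a husk DHS at their outer side. Within 50 kb of an adjacent DHS there were on average 3.36 other V2-IST DHSs and 2.88 husk DHSs, against 1.59 and 1.05 around distant DHSs. The 4446 shared DHSs with another husk DHS nearby had 3.34 other V2-IST DHSs and 4.02 husk DHSs in this window. The last count includes the husk DHS that they overlapped. The rule places a husk DHS near every adjacent DHS and none within 5 kb of a distant one, and shared husk DHSs bring V2-IST DHSs with them, so the difference between adjacent and distant DHSs in these counts is in part built in.

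The shared site beside an adjacent DHS was compared between the tissues. For 1523 shared husk DHSs that were nearest to an adjacent DHS and overlapped exactly 1 V2-IST DHS, V2-IST had the wider DHS in 992 (65.1%, Wilson interval 62.7% to 67.5%). In the 10061 other pairs of this kind V2-IST had the wider one in 60.9% (59.9% to 61.8%). The median excess of the V2-IST DHS was 52 bp (42 to 63 bp) beside an adjacent DHS and 25 bp (22 to 27 bp) elsewhere. In the outer parts, that is the outermost of 10 equal parts at either chromosome end, the shares were closer, 63.9% (60.2% to 67.5%) and 62.5% (60.9% to 64.1%), and these intervals overlapped. In the rest of the chromosomes they were 66.1% (62.8% to 69.1%) and 60.04% (58.9% to 61.2%). The median excess in the outer parts was 54 bp (39 to 69 bp) and 37 bp (32 to 44 bp), again with overlapping intervals. In the rest it was 51 bp (38 to 64 bp) and 20 bp (17 to 23 bp).

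The edges of these shared sites were also compared side by side. Over 1695 adjacent DHSs with such a pair as neighbour, the V2-IST DHS reached further towards the adjacent DHS than the husk DHS by a median of 24 bp (21 to 29 bp), and further on the far side by 15 bp (12 to 19 bp). A pair was counted once for each adjacent DHS that it was nearest to, so some of the 1523 pairs entered more than once. The 34 adjacent DHSs with a gap of up to 500 bp differed. Here the facing edge of the V2-IST DHS, counted from that of the husk DHS, lay at a median of -128 bp (-261 to -60 bp), where a negative value means that it stood back, and V2-IST had the wider DHS in 8 of 34. The median gap between the adjacent DHS and the V2-IST DHS of the pair was 551.5 bp. These 34 were picked for a short gap to the husk DHS, and the offset is that gap minus the gap to the V2-IST DHS, so its sign was largely set by the choice and nothing is read from it. In 1067 of the 1695 cases the adjacent DHS was narrower than the shared V2-IST DHS beside it (62.9%, 60.6% to 65.2%).

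Adjacent DHSs were intermediate in width. Their median was 449 bp (427 to 469 bp), with quartiles at 292 and 776 bp and a range from 134 to 3992 bp. Distant V2-IST-only DHSs had a median of 378 bp (369 to 385 bp) and shared DHSs one of 536 bp (527 to 545 bp). Shared DHSs with another husk DHS within 5 kb were the widest of these classes, with a median of 641 bp (622 to 658 bp). A wider DHS overlaps a husk DHS more readily, so the larger width of shared DHSs may in part be set by the definition. The size of this part was not tested. Under 300 bp were 26.6% of the adjacent (24.7% to 28.5%), 32.9% of the distant (31.5% to 34.3%) and 1812 of the 12082 shared DHSs. At least 2000 bp were 39 adjacent DHSs (1.87%, 1.37% to 2.54%), against 0.857% of the distant (0.623% to 1.18%) and 4.62% of the shared DHSs (4.26% to 5.01%). Of the shared DHSs with another husk DHS within 5 kb, 11.6% measured under 300 bp (10.7% to 12.6%) and 7.60% at least 2000 bp (6.86% to 8.42%).

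Adjacent DHSs had a larger median width than distant ones on 9 of the 10 chromosomes. The exception was chromosome 10, with 376 bp for 118 adjacent and 388 bp for 277 distant DHSs. They had a smaller median than shared DHSs on 10 of 10 chromosomes. The largest median of adjacent DHSs was 499 bp, on chromosome 7. The order of the classes was kept in the outer parts, with medians of 480 bp for adjacent (459 to 508 bp), 400 bp for distant (385 to 416 bp) and 577.5 bp for shared DHSs. In the rest of the chromosomes the medians were 415, 367 and 513 bp, respectively. Adjacent DHSs beside a shared husk DHS measured 454 bp (431 to 475 bp) and those beside a husk-only DHS 413.5 bp (383 to 471 bp), with overlapping intervals.

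**Figure D2:**
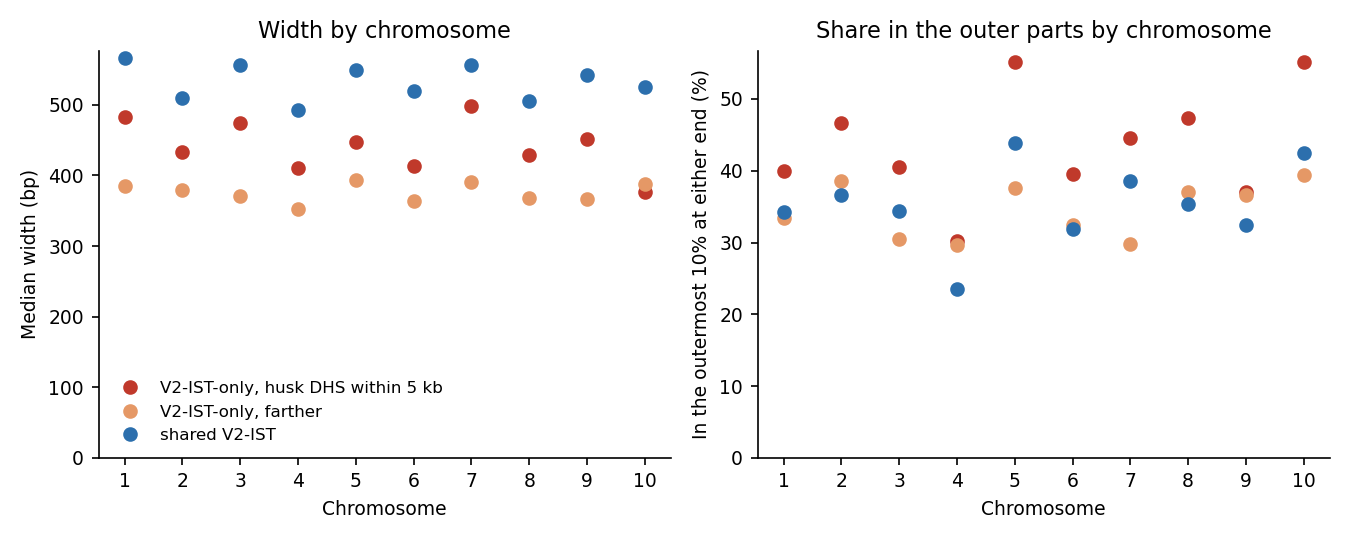
Median width in bp (left y axis) and percent of DHSs in the outer parts at either chromosome end (right y axis) for each of the 10 chromosomes (x axis); each point is 1 class on 1 chromosome, with no error bar. The red points of adjacent V2-IST-only DHSs lie below the blue points of shared DHSs on the left on 10 chromosomes and above the orange points of distant DHSs on 9, and on the right they are the highest on all 10 chromosomes. On chromosomes 4 and 9 the red and orange points on the right are nearly equal.

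Width and position changed with the gap within the set. Adjacent DHSs at 501 to 750 bp from the husk DHS were the narrowest class, with a median of 342.5 bp (318 to 359 bp), and 38.1% of them measured under 300 bp. The median was 407 bp at 751 to 1000 bp, 444.5 bp at 1001 to 1500 bp and 500 bp at 1501 to 2000 bp (442 to 548 bp), and then 483 and 484 bp in the longer classes. The 45 DHSs with a gap of up to 500 bp had a median of 542 bp (383 to 614 bp). The median width of the husk neighbour was 384 bp at 501 to 750 bp, 543 bp at 1501 to 2000 bp and 545 bp at 2001 to 3000 bp, and it was lower again at 3001 to 5000 bp, with 476 bp.

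The class at 501 to 750 bp also differed in position. Of its 278 DHSs, 139 lay in the central 60% of their chromosome (Wilson interval 44.2% to 55.8%), against 26.6% at 2001 to 3000 bp (22.4% to 31.3%) and 30.7% at 3001 to 5000 bp (27.1% to 34.6%). The 139 DHSs of this class in the central 60% had a median width of 310 bp (286 to 336 bp), and the 139 nearer the ends one of 409 bp (346 to 493 bp). The other adjacent DHSs measured 429 bp (402 to 485 bp) in the central 60% and 482 bp (464 to 507 bp) nearer the ends. This was not particular to V2-IST-only DHSs. Shared DHSs with another husk DHS at 501 to 750 bp also lay in the central 60% in 47.9% of cases (44.0% to 51.8%) and were narrower, with a median of 506 bp (474 to 555 bp) against 657 bp (607 to 705 bp) at 751 to 1000 bp.

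**Figure D3:**
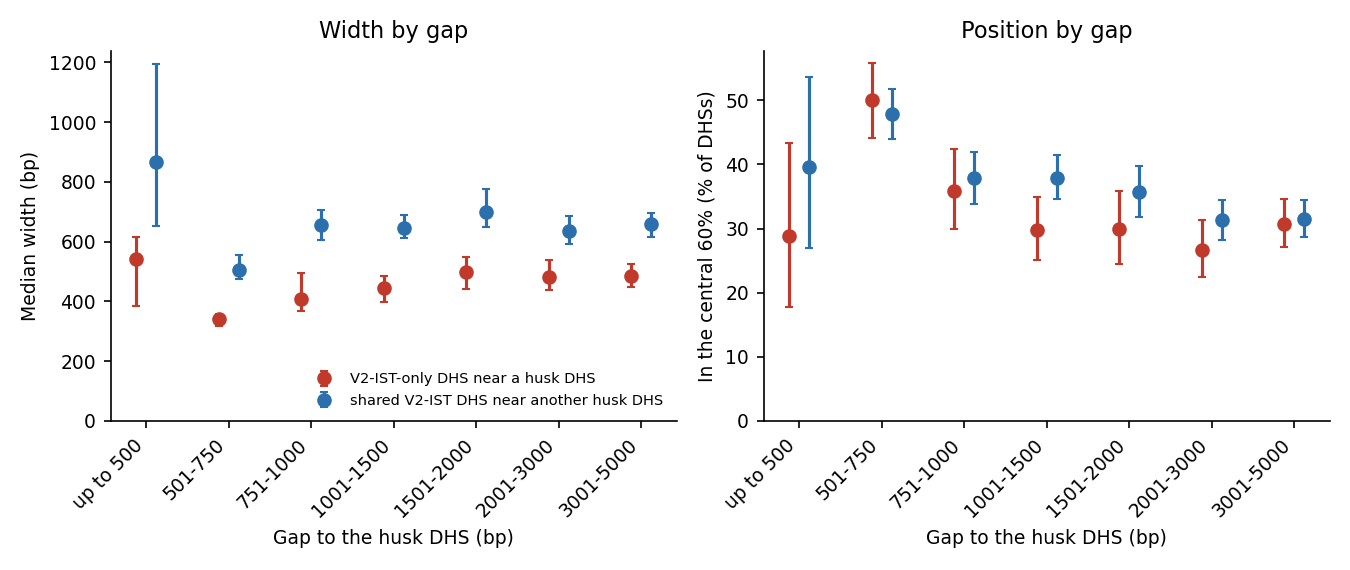
Median width in bp (left y axis, bars give the binomial 95% interval of the median) and percent of DHSs in the central 60% of the chromosome (right y axis, bars give the Wilson 95% interval) by the gap to the husk DHS (x axis, bp). Red points are adjacent V2-IST-only DHSs and blue points shared V2-IST DHSs with another husk DHS within 5 kb; in both classes the point at 501 to 750 bp is the lowest on the left, at 342.5 and 506 bp, and the highest on the right, at 139 of 278 and 47.9%.

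Along the chromosomes, adjacent DHSs were frequent towards the ends. The outermost of 10 equal parts at both ends together held 917 of 2087 (43.9%, Wilson interval 41.8% to 46.1%), against 34.4% of the distant (33.0% to 35.8%) and 35.3% of the shared DHSs (34.5% to 36.2%). The share was higher than that of distant and of shared DHSs on 10 of 10 chromosomes. Against distant DHSs it was nearly equal on chromosome 4 (30.2% and 29.7%) and on chromosome 9 (37.1% and 36.6%). It was also closer to that of the shared DHSs with another husk DHS within 5 kb, of which 40.9% lay in these parts (39.4% to 42.3%). The median distance to the nearer chromosome end was 25.1 Mb for adjacent DHSs (23.8 to 27.2 Mb), 28.9 Mb for these shared DHSs (27.5 to 29.9 Mb) and 35.1 Mb for distant ones (33.4 to 37.0 Mb). Within 2 Mb of a chromosome end there were 82 adjacent DHSs (3.93%, 3.18% to 4.85%), close to the 4.05% of the distant ones (3.51% to 4.69%). Of the shared DHSs 2.38% lay there (2.12% to 2.66%), and of those with another husk DHS within 5 kb also 2.38% (1.98% to 2.88%). DHSs of both lists are denser at the ends, and the part of this density in the difference was not tested.

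The central pair of parts held 7.04% of the adjacent DHSs (6.02% to 8.22%) and 11.0% of the distant ones. Of the shared DHSs with another husk DHS within 5 kb it held 7.74% (6.99% to 8.56%), an interval that overlapped that of the adjacent DHSs. As a share of the V2-IST-only DHSs in a part, adjacent DHSs ranged from 19.9% in the fifth part (15.4% to 25.3%) to 38.6% in the first (35.7% to 41.5%) and 37.9% in the last (35.3% to 40.5%). Among chromosomes this share was highest on chromosome 8, with 203 of 559 (36.3%, 32.4% to 40.4%), and lowest on chromosome 6, with 129 of 487 (26.5%, 22.8% to 30.6%). Chromosome 4 was close to the latter, with 169 adjacent DHSs and a share of 26.8% (23.5% to 30.4%). Chromosomes 7 and 5 were near chromosome 8, with 36.0% (32.1% to 40.2%) and 35.7% (32.5% to 39.0%). The highest and the lowest chromosome were picked from these same values, so no difference is read from their intervals. The share with a shared husk neighbour varied less, from 79.5% on chromosome 7 to 85.6% on chromosome 1.

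**Figure D4:**
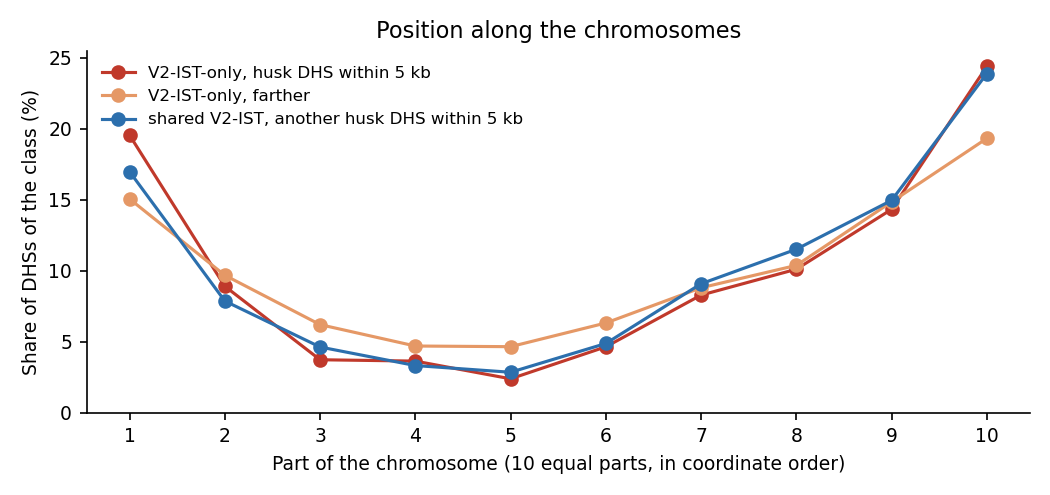
Percent of the DHSs of a class (y axis) in each of 10 equal parts of the chromosomes (x axis, all chromosomes together, in coordinate order); lines join the points of a class. The red line of adjacent V2-IST-only DHSs reaches 19.5% and 24.4% in the first and the last part, above the orange line of distant DHSs at 15.1% and 19.3%, and runs near the blue line of shared DHSs with another husk DHS within 5 kb.

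Single sites showed how the arrangements looked. The smallest gap, 21 bp, was on chromosome 3, where the V2-IST-only DHS reached from 202340012 to 202341194 (1183 bp) and a husk-only DHS from 202341216 to 202341638 (423 bp). Here each tissue had its own DHS and the DHSs nearly touched. On chromosome 1, a V2-IST-only DHS from 227506467 to 227507189 (723 bp) stood 77 bp from a husk-only DHS of 504 bp. At the other sites among the 5 with the smallest gaps the husk DHS was shared and wide. On chromosome 1 from 13053572 to 13054156 (585 bp), the gap was 53 bp to a husk DHS of 2000 bp, while the nearest other V2-IST DHS measured 1305 bp and lay 649 bp away. On chromosome 5 from 213282301 to 213283427 (1127 bp), the gap was 70 bp to a husk DHS of 2441 bp, and the nearest other V2-IST DHS measured 1987 bp at 611 bp. Also on chromosome 5, the DHS from 12334723 to 12335021 (299 bp) had a gap of 88 bp to a husk DHS of 1411 bp, and the nearest other V2-IST DHS measured 565 bp at 709 bp.

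The widest adjacent DHS lay on chromosome 7 from 108629479 to 108633470 (3992 bp). Sites shared by the tissues stood on both sides of it, and the nearer husk DHS was 976 bp away and measured 1522 bp. The next, on chromosome 2 from 20516637 to 20520110 (3474 bp), had a narrow husk-only DHS of 223 bp at 1513 bp. The third was on chromosome 7 from 5206487 to 5209685 (3199 bp), 765 bp from a shared husk DHS of 218 bp. The nearest other V2-IST DHS was shared and measured 1087 bp, so both V2-IST DHSs were wider than this husk DHS. On chromosome 6 from 61206331 to 61209397 (3067 bp), the husk DHS measured 977 bp at 1873 bp. The nearest other V2-IST DHS, also shared, measured 2993 bp. The fifth was on chromosome 6 from 164491460 to 164494360 (2901 bp), 2194 bp from a shared husk DHS of 1231 bp.

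A husk-only DHS on chromosome 8 from 176871500 to 176871779 (280 bp) was nearest to 4 adjacent DHSs. One of these, from 176866377 to 176866562 (186 bp), lay 4937 bp before it. The others followed it at 703, 2175 and 3009 bp, starting at 176872483 (897 bp), 176873955 (319 bp) and 176874789 (279 bp). The latter 3 also formed the run of 3 with the shortest span, 2585 bp, chosen among the 11 runs of 3 after their spans were seen. The run of 4 lay on chromosome 5, far from the ends. Its first DHS, from 127486224 to 127486444 (221 bp), was separated from the others by most of the span of the run, 151198 bp, without a DHS of either tissue in between. The others started at 127635192 (225 bp), 127636030 (276 bp) and 127637087 (335 bp), and the last of them stood 645 bp from a shared husk DHS of 318 bp. All 4 were narrower than the median of the adjacent DHSs.

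**Figure D5:**
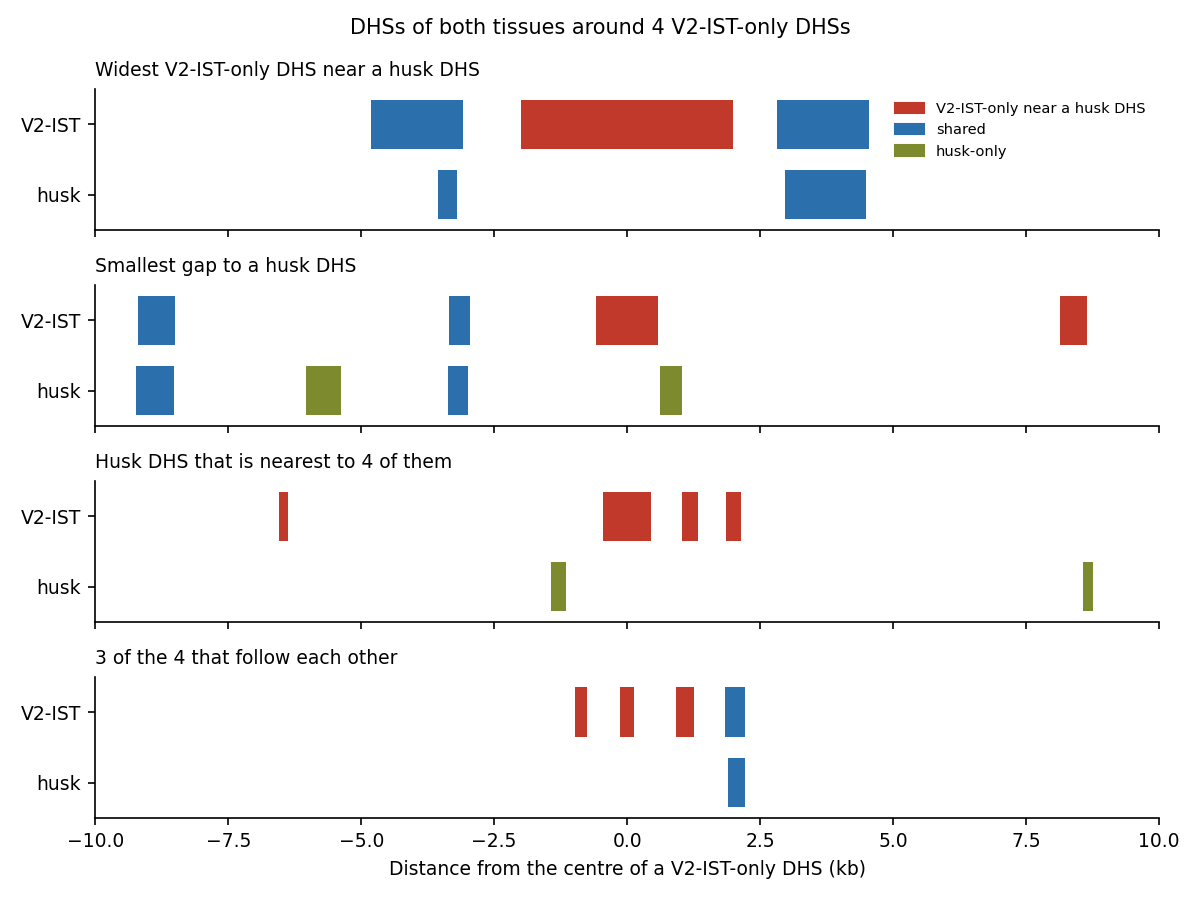
DHSs of V2-IST (upper row of each panel) and husk (lower row) within 10 kb of the centre of a V2-IST-only DHS (x axis, distance in kb, to scale), for the widest adjacent DHS, the smallest gap, the husk DHS nearest to 4 adjacent DHSs, and 3 of the 4 that follow each other. Red boxes are adjacent V2-IST-only, blue boxes shared and green boxes husk-only; the widest, at 3992 bp, stands between shared sites, and the smallest gap, of 21 bp, is to a husk-only DHS.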

How the data were processed

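DNase-seq was performed on V2-IST and husk of B73. As stated in the study's methods and in the submitters' processing notes, the authors aligned reads with BWA, kept uniquely mapped reads with SAMtools, and ran MACS2 for each biological replicate against naked DNA. Technical libraries were pooled, and a peak was kept when the replicates covered largely the same stretch. Peaks in a single replicate, or with shifted boundaries, are thus missing, which can turn a shared site into a V2-IST-only one. The authors deposited positions of DHSs (chromosome, start and end), and these other values carry no score or depth. The processing notes also name B73 RefGen_v3, but the methods name AGPv4, and the deposited positions coincided with the AGPv4 regions that accompany the study. No gene table of this assembly was used, so genes, GC content and sequences were not analysed here.

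Gaps count the bases between edges. Shares have Wilson intervals and medians exact binomial intervals (95%). Chromosome length was the largest end in either list. The classes, their limits and the regions named were chosen with earlier results of these data known. The regions named were the 5 smallest gaps, the 5 widest, 2 on either side of the limit, the husk DHS nearest to the most adjacent DHSs, the run with the most adjacent DHSs, the run of 3 with the shortest span (a choice among equals made after the spans were seen), and the chromosomes where the share was highest and lowest. The classes by gap, the comparison with shared DHSs near another husk DHS, the edges of shared sites and the joined regions were added after the lists were examined. The other settings were gap limits of 2500 and 10000 bp, a minimum width of 300 bp, joining within 500 bp, lists of equal length, sharing at 50% of both DHSs and 20 parts per chromosome. Lists of equal length held the widest DHSs, 15261 per tissue, so the husk list stayed whole. The code was tested on simulated lists. The scripts ran under matplotlib 3.10.9 (plots), scipy 1.17.1 (intervals), pandas 2.3.3 and numpy 2.4.6 (tables) in Python 3.11.15.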

Additional observations from a re-analysis of the deposited data

How the results depend on the processing

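With a gap limit of 2500 bp, 1335 DHSs were adjacent (20.8% of the V2-IST-only DHSs), with a median gap of 1134 bp and a median width of 424 bp, 36 bp above the distant ones. Of these, 41.3% lay in the outer parts, 7.57% next to another adjacent DHS, 8.76% had a husk DHS on both sides and 56.2% had a nearer V2-IST DHS. With 10000 bp, 43.8% of the V2-IST-only DHSs were adjacent, the median gap was 2674.5 bp, and these shares were 26.6% (next to another), 19.0% (both sides) and 62.8% (nearer V2-IST DHS). The limit sets the number, the share and the gap by construction, and the cause of the other shifts was not tested. With DHSs of at least 300 bp, 26.3% were adjacent, the median gap was 1936 bp, the median width 546 bp, 81.4% had a shared husk neighbour, 57.3% a nearer V2-IST DHS, and 14.6% stood next to another. With lists of equal length these values were 34.4% (adjacent), 566 bp (width), 75.9%, 57.0% and 15.5%. This setting kept the widest DHSs, so narrow V2-IST DHSs alone were dropped. It and the minimum width both remove narrow DHSs, so the larger median width is largely built in. When sharing required 50% of both DHSs, V2-IST DHSs with smaller overlaps entered at a gap of 0 bp. This gave 4213 adjacent DHSs (49.4%), a median gap of 0.0 bp and a median width of 598 bp, 220 bp above the distant ones, with 34.7% having a shared husk neighbour, 57.4% a husk DHS on both sides, 29.8% a nearer V2-IST DHS, 15.9% next to another and 41.5% in the outer parts. The 20 parts per chromosome gave 25.7% in the outermost parts, which are narrower. The share of shared DHSs among all husk DHSs was not recomputed under the other settings. Shifts in the share with a shared husk neighbour are therefore not read as a trait of the adjacent DHSs. Joining within 500 bp moved no value beyond its interval. Adjacent DHSs were wider than distant ones by median under each setting that gave this value. In all, 25 of 61 recomputed values stayed within their interval or, for the number of DHSs, within 1.5 times. No paired analysis was possible because the files join the replicates of a tissue, so a replicate could not be left out either. A stricter peak threshold, sequence and annotation were not run, as the files hold no score and a genome of the build was not used.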
